A study of Homo sapiens with 24 samples.

Results

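TIPARP and 9 other genes of the poly(ADP-ribose) polymerase (PARP) family, PARP1, PARP2, PARP3, PARP4, PARP8, PARP9, PARP10, PARP12 and PARP14, were examined in RCC4+VHL cells, by RNA sequencing of 24 libraries. They are 10 of 23106 gene symbols in the count tables, and all 10 passed the filter on low counts, which left 11735 genes for testing. TIPARP was chosen by its higher level with the AHR ligand ITE in normoxia in these same data, and the other 9 were taken as the family it is set beside. RCC4 is a renal carcinoma line that lacks working VHL, the protein that marks HIF-α for destruction when oxygen is present, and RCC4+VHL is a clone of it stably transfected with a pcDNA3-VHL plasmid and kept under G418 selection. All cells were held in charcoal-treated serum without phenol red before treatment. Each of the 4 groups held 6 libraries and lasted 6 h: normoxia + DMSO (21% oxygen, 0.1% DMSO, the vehicle), normoxia + ITE (21% oxygen, 100 nM ITE), hypoxia + DMSO (0.5% oxygen, 0.1% DMSO) and hypoxia + ITE (0.5% oxygen, 100 nM ITE).

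PARP enzymes move ADP-ribose from NAD+ onto proteins. A few of them build long chains of it at broken DNA, while most attach a single unit. AHR, the aryl hydrocarbon receptor, turns on genes once a small molecule binds it. It pairs with ARNT, the partner it shares with HIF-α, and binds DNA at a short core, GCGTG. TIPARP is one of the genes that AHR switches on, and its product attaches ADP-ribose to AHR and dampens it, so that it closes a feedback loop.

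The stretch before the transcription start shows where this core lies in TIPARP and in the family members with the core on the same side of their start. Windows from 250 bases before to 50 bases after the start were taken from RefSeq (GRCh38.p14) for 8 of the 10 genes, 13 windows in all, and each matched GRCh37 at 1 place. The core was searched as GCGTG and as its reverse complement CACGC. Of the 13 windows 7 held it, from 6 of the 8 genes, against 36.5% of all 35116 windows of that length. TIPARP had 2 copies, 208 and 142 bases before the start in the first of its 3 windows, and 12.7% of all windows held 2 or more. In PARP2 it lay 75 and in PARP12 57 bases before the start, and in PARP1, PARP3 and PARP8 all copies lay after the start. PARP8 also had 2 copies in a window, 11 and 37 bases after the start in its window 2. Its window 3 held 2 as well, at 7 and 43 bases after the start. The windows of PARP9 and PARP14 did not hold these letters. The 250 bases before each start are given 5′ to 3′ along the gene, with the core in capitals. They set the gene that was higher with ITE beside the members with the core before their start. On GRCh37 these are TIPARP (chr3:156392129-156392378, plus strand), PARP2 (chr14:20811544-20811793, plus strand) and PARP12 (chr7:139762752-139763001, minus strand).
TIPARP: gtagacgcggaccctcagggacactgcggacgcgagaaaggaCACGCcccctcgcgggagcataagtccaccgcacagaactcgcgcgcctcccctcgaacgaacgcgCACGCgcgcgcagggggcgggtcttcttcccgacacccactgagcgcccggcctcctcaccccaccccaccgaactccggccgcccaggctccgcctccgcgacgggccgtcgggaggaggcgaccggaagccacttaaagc
PARP2: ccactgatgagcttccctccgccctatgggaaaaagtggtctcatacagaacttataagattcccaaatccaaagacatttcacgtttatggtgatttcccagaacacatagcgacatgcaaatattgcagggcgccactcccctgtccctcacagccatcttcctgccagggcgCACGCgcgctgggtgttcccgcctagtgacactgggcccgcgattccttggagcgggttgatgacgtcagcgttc
PARP12: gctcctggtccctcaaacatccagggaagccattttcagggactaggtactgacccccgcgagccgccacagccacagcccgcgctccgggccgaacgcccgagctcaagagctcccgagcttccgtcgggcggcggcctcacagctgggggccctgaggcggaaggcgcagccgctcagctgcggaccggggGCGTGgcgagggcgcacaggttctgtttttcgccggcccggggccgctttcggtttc
The core that HIF binds, searched as ACGTG and CACGT, was in windows of PARP2, PARP3 and PARP8 and in 21.4% of all windows. It was in none of the TIPARP windows. A match of letters is a description, and binding at these places was not analysed here.

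Total counts ran from 770094 (hypoxia + DMSO replicate 2) to 93851342, with a median of 7981992.5, and 3 counts were worth between 0.0294 and 4.12 CPM (counts per 1e+06 counts after scaling). Hypoxia + ITE replicate 6 stood apart from the rest. Its genes lay a median of 0.75 (log2) away from the mean of the other 5 libraries of its group, where the 18 libraries of the other 3 groups lay between 0.11 and 0.43 from theirs. In replicate 6 this deviation followed the G + C content of the transcripts, with a Spearman rho of 0.68 over 10623 genes, against -0.24 to 0.16 in the libraries of the other groups. Results that rest on this library are therefore given with and without it. The renal markers PAX8 (191 to 476 CPM), PAX2 (17.1 to 63.9 CPM), KRT8, KRT18 and VIM were present in every library, LHX1 was at most 4.59 CPM and CDH6 between 1.27 and 27.4 CPM. The blood, endothelial and liver markers PTPRC, CD3E, PECAM1, CDH5 and ALB stayed at or below 0.81 CPM, and the fibroblast marker COL1A1 reached 27.1 CPM in 1 normoxia + DMSO library.

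TIPARP was chosen by its difference with ITE in normoxia, where it was the member that differed most. The gene lies on chromosome 3 at 156391024 to 156424559 (GRCh37, plus strand), and its main (MANE Select) transcript has 6 exons and 3861 bases. In normoxia + DMSO its level ran from 43.2 to 54.3 CPM with a median of 46.9. In normoxia + ITE it ran from 110 to 129 CPM with a median of 124, so that every ITE library lay above every DMSO library. This separation was found for 0.477% of all tested genes. In hypoxia + DMSO the 6 libraries ran from 45.1 to 66.0 CPM with a median of 53.7. In hypoxia + ITE they ran from 40.3 to 149 CPM with a median of 84.5, and the group overlapped both DMSO groups through its lowest library. In bulk RNA, a change in the RNA of each cell and a change in the share of cells that make it cannot be told apart.

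**Figure D1:**
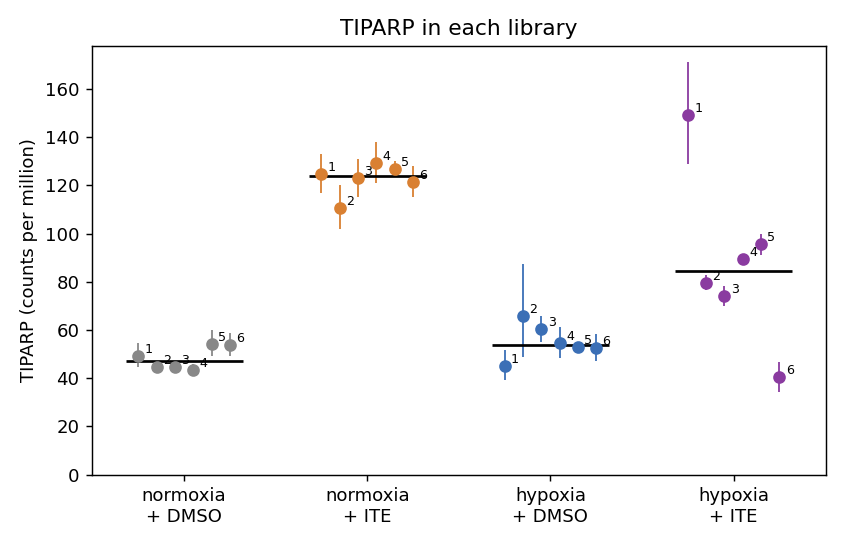
TIPARP in CPM (vertical axis) in each library of the 4 groups (horizontal axis). Points are libraries with their replicate number, bars are exact 95% Poisson intervals (counting error only), and lines are group medians. The normoxia + ITE libraries form a tight group between 110 and 129 CPM, while hypoxia + ITE spreads from 40.3 to 149 CPM.

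The means were 48.3 ± 4.92 CPM in normoxia + DMSO, 123 ± 6.6 in normoxia + ITE, 55.2 ± 7.15 in hypoxia + DMSO and 88.1 ± 35.7 in hypoxia + ITE (SD, n = 6 each). The fitted difference between ITE and DMSO in normoxia was 1.35 on the log2 scale (SE 0.17), a 2.54-fold higher level, with the ITE library higher in 6 of 6 same-numbered pairs. This value chose the gene and is given without a test. Values from comparisons that share those libraries are also descriptions. Hypoxia with DMSO differed from normoxia with DMSO by 0.18 (SE 0.17), and hypoxia with ITE from normoxia with ITE by -0.50 (SE 0.17), or -0.37 (SE 0.13) without hypoxia + ITE replicate 6. The ITE difference was smaller in hypoxia than in normoxia by a fitted -0.68 (SE 0.24), and -0.55 (SE 0.18) without that library.

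ITE against DMSO in hypoxia compares 12 libraries outside the normoxia comparison and was tested. TIPARP was chosen with the results of all 4 groups known and the fit takes its spread from all 24 libraries, so this p is not independent of them. The fitted log2 difference was 0.67 (SE 0.18), 1.59-fold, and the ITE library was higher in 5 of 6 same-numbered pairs. Across all genes it did not pass the test (edgeR quasi-likelihood, adjusted p = 0.494, rank 13 of 11735; 0.965 when the 12 hypoxia libraries were fitted alone), in a comparison in which 0.0597% of genes passed. As a single value, the log2 CPM of 6 against 6 libraries differed with an exact two-sided permutation p of 0.0455, where 0.00216 is the smallest p this design allows. The result turned on hypoxia + ITE replicate 6, where TIPARP was 40.3 CPM from 167 counts (exact 95% interval 34.4 to 46.9). Without it the remaining 5 libraries ran from 74.1 to 149 CPM and lay above all 6 hypoxia + DMSO libraries, a separation found for 0.23% of tested genes. The fitted difference was then 0.80 with an edgeR adjusted p of 0.00299, and the exact permutation p of 5 against 6 was 0.00216, the smallest that these numbers allow. Replicate 6 was the only library of its group not above all hypoxia + DMSO libraries, so leaving it out fixed this separation and this permutation p. That permutation test was chosen after the data were seen, and these values without replicate 6 are descriptions. The highest value, 149 CPM in hypoxia + ITE replicate 1, came from 201 counts (interval 129 to 171), and without that library the difference was 0.48 with an edgeR adjusted p of 0.354. The highest hypoxia + DMSO value, 66.0 CPM in replicate 2, came from 48 counts. Its interval, 48.6 to 87.5, takes in the 74.1 CPM that was lowest among the 5 ITE libraries.

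Set beside TIPARP, the other 9 genes differed little with ITE in normoxia. Their fitted log2 differences ran from -0.11 (PARP10) to 0.11 (PARP8 and PARP14) with a median of 0.01, against a median of 0 over all genes, and 6 were above 0 and 3 below. None passed edgeR's test, where 0.0511% of all genes did. None had an unadjusted p below 0.05 either, as 1.46% of all genes had, and DESeq2 and limma also called 0 of the 9. In each of the 9 the ITE libraries overlapped the DMSO libraries. The precision differed between them: 2 SE either side of the difference ran from -0.19 to 0.21 for PARP1 and from -0.59 to 0.37 for PARP10. A difference as large as that of TIPARP lay outside these ranges for each of the 9. The width for PARP10 rested on hypoxia + ITE replicate 6, through the spread that all groups share in the fit. Its SE was 0.24 with that library and 0.09 without it, beside 0.10 and 0.08 for PARP1.

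**Figure D2:**
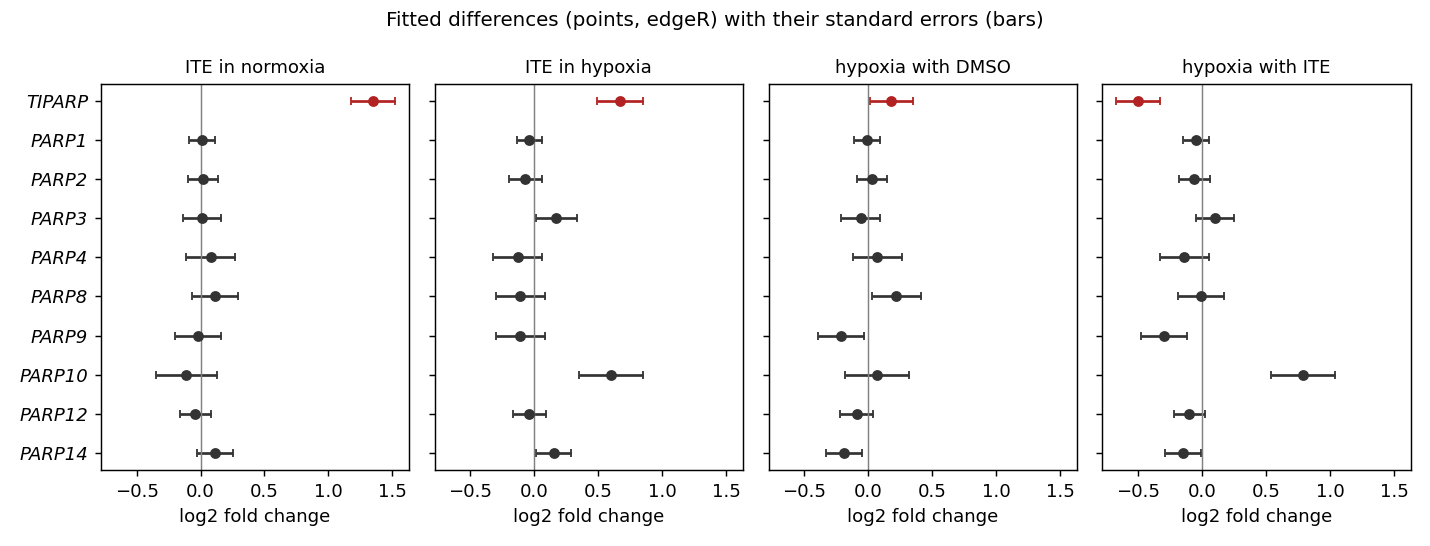
Fitted log2 fold changes (horizontal axis, points) with their standard errors (bars) for the 10 genes (vertical axis) in 4 comparisons, with TIPARP in red. In normoxia the other 9 genes sit between -0.11 and 0.11 while TIPARP is at 1.35, and PARP10 is the gene furthest to the right in hypoxia with ITE, at 0.79.

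The enzymes that act at DNA breaks overlapped between all compared groups. PARP1, which detects strand breaks and builds most of the ADP-ribose chains there, ran from 259 to 311 CPM in normoxia + DMSO and from 261 to 300 CPM in normoxia + ITE. In hypoxia + DMSO it ran from 263 to 313 CPM, and in hypoxia + ITE from 212 to 313 CPM. The log2 differences of PARP1 lay between -0.05 and 0.01 in the 4 comparisons (SE 0.10 each). PARP2, which shares that chain-building work, had group medians of 50.3, 51.0, 49.1 and 47.8 CPM, with the normoxia groups first and DMSO before ITE. PARP3, which adds single ADP-ribose units at double-strand breaks, had medians of 15.0, 15.1, 14.7 and 15.7 CPM in the same order. Its lowest library was at 9.99 CPM and its highest at 22.2 CPM, both in hypoxia.

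PARP4 is the PARP of vault particles, large ribonucleoprotein shells of the cytoplasm. In the 12 normoxia libraries it stayed between 116 and 147 CPM. In hypoxia it was at 68.8 CPM in hypoxia + DMSO replicate 1 and at 53.1 CPM in hypoxia + ITE replicate 3, while other hypoxia libraries reached 159 and 160 CPM. The SD of its log2 CPM was 0.09 and 0.10 in the normoxia groups, 0.46 in hypoxia + DMSO and 0.61 in hypoxia + ITE. A wider spread in both hypoxia groups than in both normoxia groups was seen in 7 of the 10 genes and in 70.1% of all tested genes. Without hypoxia + ITE replicate 6 it was seen in 5 of the 10 and in 58.2% of all genes.

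The remaining members attach single units or bind ADP-ribose. PARP9, which works as a pair with the ubiquitin ligase DTX3L, ran from 22.6 to 28.6 CPM in normoxia + DMSO and from 21.8 to 30.4 CPM in normoxia + ITE. In hypoxia + DMSO it ran from 12.4 to 28.9 CPM and in hypoxia + ITE from 8.21 to 24.8 CPM. The log2 differences of PARP9 with hypoxia were -0.21 (SE 0.18) with DMSO and -0.30 (SE 0.18) with ITE and did not pass edgeR's test (adjusted p = 0.776 and 0.351). Without hypoxia + ITE replicate 6, where PARP9 was lowest, the latter was -0.15 (SE 0.13). PARP9 (122246771 to 122283424, minus strand) and PARP14 (122399686 to 122449687, plus strand) lie near each other on chromosome 3 (GRCh37). PARP14, a macrodomain protein that acts with STAT6, had medians of 65.7, 70.2, 54.3 and 64.8 CPM in the 4 groups in the order above, with all groups overlapping. PARP12, a zinc finger protein of the Golgi, had medians of 31.2, 31.9, 30.7 and 30.0 CPM. PARP8, a little-studied member, had medians of 21.2, 23.3, 26.4 and 25.0 CPM, and its lowest library was again hypoxia + ITE replicate 6, at 9.41 CPM. Its hypoxia with ITE difference was -0.01 (SE 0.18), and 0.14 (SE 0.14) without that library.

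PARP10, a single-unit transferase first described as a partner of MYC, gave the largest differences among the 9. In normoxia + DMSO it ran from 41.0 to 52.2 CPM with a median of 46.9, and in normoxia + ITE from 37.6 to 48.8 CPM with a median of 41.4. In hypoxia + DMSO it ran from 33.0 to 54.9 CPM with a median of 50.0. In hypoxia + ITE 5 libraries lay between 48.6 and 52.7 CPM and replicate 6 was at 194 CPM, from 804 counts. The fitted log2 difference of PARP10 was 0.60 (SE 0.25) for ITE in hypoxia and 0.79 (SE 0.25) for hypoxia with ITE, and neither passed edgeR's test (adjusted p = 0.494 and 0.0824). Without replicate 6 they were 0.05 and 0.24 (edgeR adjusted p = 1 and 0.287).

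In the 3 other comparisons that were tested across the family, 0 of the 9 passed edgeR's test. For ITE in hypoxia 1 of the 9, PARP10, had an unadjusted p below 0.05, as had 9.56% of all genes, and DESeq2 and limma called 0. For hypoxia with DMSO 1.30% of all genes passed, none of the 9 had an unadjusted p below 0.05 (9.47% of all genes had), and DESeq2 and limma called 0. Their log2 differences ran from -0.21 (PARP9) to 0.22 (PARP8). For hypoxia with ITE 2.35% of all genes passed, 1 of the 9, PARP10, had an unadjusted p below 0.05 (20.1% of all genes had), and DESeq2 called PARP10 (adjusted p = 0.0363) while limma called none. The test of whether the ITE difference depended on oxygen called 0% of genes, 374 of 11735 with an unadjusted p below 0.05, and DESeq2 and limma called 0 as well. Of the 9, which leave out TIPARP, 1 (PARP10) had an unadjusted p below 0.05 there, with a fitted difference of 0.72 (SE 0.35). Without hypoxia + ITE replicate 6 that difference was 0.16 (SE 0.14), and 0 of the 9 had an unadjusted p below 0.05.

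**Figure D3:**
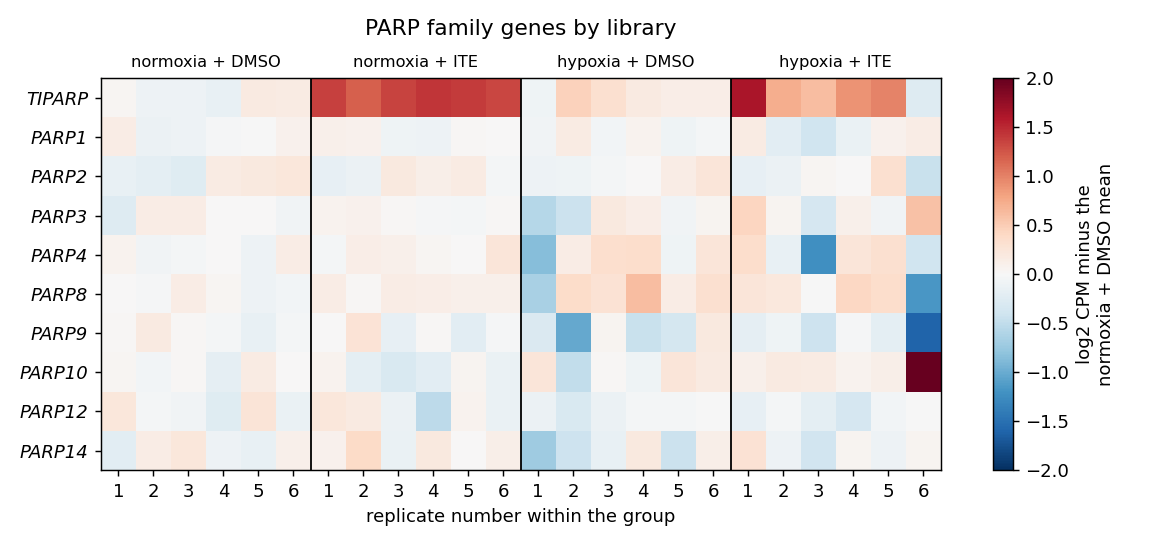
Log2 CPM of the 10 genes (rows) in the 24 libraries (columns, by group and replicate number), each as its difference from the normoxia + DMSO mean (colour scale cut at 2 either way). The row of TIPARP is raised in the ITE libraries other than hypoxia + ITE replicate 6, where PARP8, PARP9 and TIPARP are low and PARP10 is high.

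In hypoxia + ITE replicate 6 the members departed from the mean of the other 5 libraries in both directions. PARP10, with the highest G + C content of the 10 transcripts (66.8%), was 1.94 higher on the log2 scale. PARP3 (56.6%) was 0.54 higher, PARP1 (49.6%) 0.26 higher, PARP12 (53.5%) 0.15 higher and PARP14 (43.4%) 0.10 higher. PARP8, with the lowest content (36.9%), differed by -1.42, PARP9 (42.7%) by -1.43 and TIPARP (40.8%) by -1.23. PARP2 (45.1%) and PARP4 (44.5%) differed by -0.45 and -0.31. Across these 10 genes Spearman's rho between the departure and the G + C content was 0.90, a description of 1 library in which all points share the same depth and scaling. When G + C content and length were fitted as offsets in every library, the departure was -0.40 for TIPARP and 0.84 for PARP10. It was -0.78 for PARP9 and -0.37 for PARP8, and that of PARP14 was larger than before, at 0.53. With these offsets the log2 difference with ITE in hypoxia was 0.74 for TIPARP (edgeR adjusted p = 0.0421) and 0.15 for PARP10 (edgeR adjusted p = 0.815). This fit was chosen after the data were seen. What set this library apart was not tested.

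**Figure D4:**
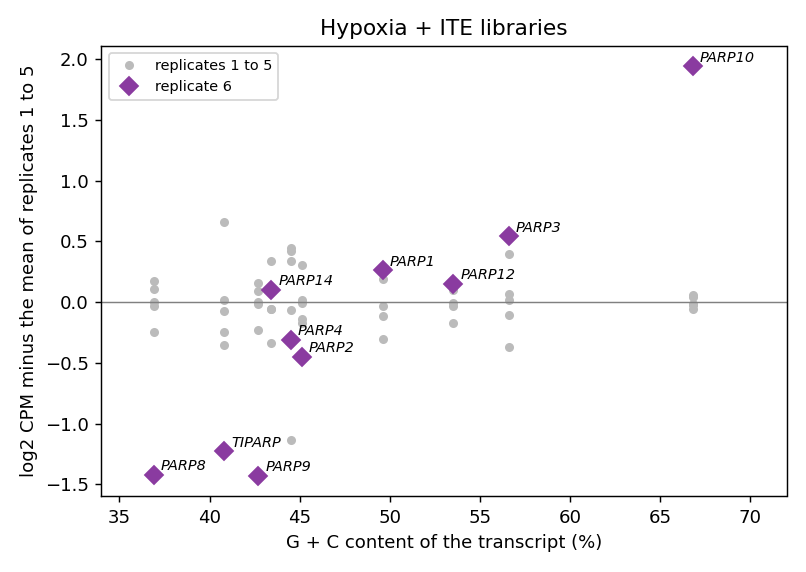
Departure of each gene in hypoxia + ITE replicate 6 (diamonds) and in replicates 1 to 5 (grey points) from the mean of replicates 1 to 5, in log2 CPM (vertical axis), against the G + C content of its main transcript in percent (horizontal axis). In replicate 6 the departure runs from -1.43 in PARP9 to 1.94 in PARP10.

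Levels of different genes were compared per kilobase (kb) of the main transcript. In normoxia + DMSO PARP1 was highest with 70.6 ± 5.18 CPM per kb (SD, n = 6), above 90.3% of 10623 tested genes with a known length. PARP2 (27.5 ± 4.13) and PARP4 (23.0 ± 1.52) followed, and their libraries overlapped. PARP10 (13.3 ± 1.05), TIPARP (12.5 ± 1.27), PARP12 (10.8 ± 1.54), PARP14 (8.59 ± 1.08) and PARP9 (8.31 ± 0.649) formed a run in which each gene overlapped its neighbour. PARP3 (6.38 ± 0.641) and PARP8 (2.86 ± 0.173) were lowest, each without overlap with the gene above. Normoxia + ITE moved TIPARP to 31.8 ± 1.71 CPM per kb, which was above PARP2 (27.8 ± 2.94) in mean. Their libraries overlapped there, from 28.6 to 33.5 for TIPARP and from 24.3 to 31.2 for PARP2.

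**Figure D5:**
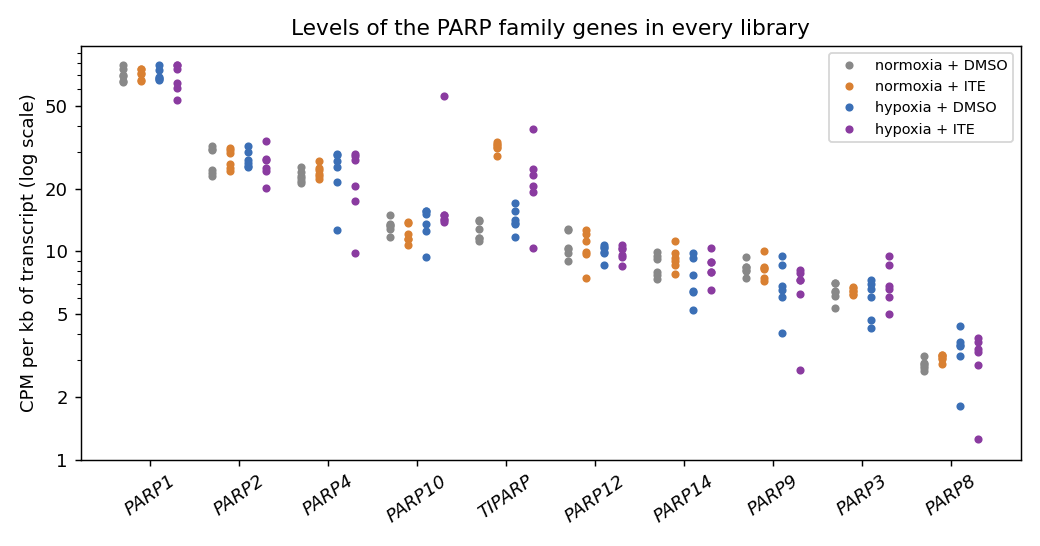
Level of each gene in CPM per kb of transcript (vertical log axis) in every library, with genes ordered by their mean in normoxia + DMSO and colours for the 4 groups. PARP1 is highest near 70.6 and PARP8 lowest near 2.86 CPM per kb, and TIPARP alone shows its normoxia + ITE points clear of its DMSO points.

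The genes whose log2 CPM followed TIPARP most closely over the 24 libraries, among 11624 with a mean of at least 1 CPM, were ALDH1A3 (Pearson r = 0.91), FAM107B (0.87), CYP1B1 (0.86), SLC7A5 (0.84) and NEDD4L (0.81). These correlations are descriptions, since the libraries share treatments and depth and TIPARP was chosen by its level with ITE. ALDH1A3 makes retinoic acid from retinaldehyde, CYP1B1 is a monooxygenase long used as a marker of AHR, SLC7A5 imports large neutral amino acids and NEDD4L is a ubiquitin ligase. The log2 difference with ITE in normoxia was 1.33 in ALDH1A3, 2.51 in CYP1B1, 1.21 in SLC7A5, 0.48 in FAM107B and 0.32 in NEDD4L. Within groups, after the group means were taken out, r was 0.76, 0.54, 0.24, 0.72 and 0.80 in the same order. By this measure PARP8 had r = 0.73, PARP4 0.51, PARP9 0.49 and PARP10 -0.76, and the other PARP genes lay between -0.16 and 0.37. All these within-group values include hypoxia + ITE replicate 6. With the group means kept in, the closest of the other PARP genes was PARP8, with r = 0.37 and rank 673, and PARP10 had r = -0.34. Without hypoxia + ITE replicate 6 (23 libraries) r was 0.80 to 0.96 for the 5 genes above, and PARP14 was the closest PARP gene (r = 0.37, rank 447), with PARP8 at 0.25 and PARP10 at -0.21.

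No gene of the wider ADP-ribose system passed the test. Over all genes 0% to 2.35% passed in these 5 comparisons, 1.46% to 20.1% had an unadjusted p below 0.05, and the median log2 difference was 0 to 0.02. Of 7 further PARP family genes (PARP6, PARP11, PARP15, PARP16, TNKS, TNKS2 and ZC3HAV1) 6 were tested and none passed edgeR's test in any of the 5 comparisons. Their medians ran from -0.19 to 0.04. In hypoxia with DMSO 2 of the 6 had an unadjusted p below 0.05, beside 9.47% of all genes. These were ZC3HAV1 (-0.39, SE 0.12) and PARP16 (0.78, SE 0.34). In hypoxia with ITE 3 of the 6 had, beside 20.1% of all genes. They were ZC3HAV1 (-0.29, SE 0.12), TNKS2 (-0.37, SE 0.17) and PARP6 (0.36, SE 0.17). Elsewhere none had. PARP15 had at most 1 count in any library. Of the genes that remove ADP-ribose, such as PARG, 5 of 7 were tested and none passed, with medians of -0.10 to 0.34. An unadjusted p below 0.05 was found for 0 to 2. The 2 were in hypoxia with DMSO and in hypoxia with ITE, beside 9.47% and 20.1% of all genes. MACROD1 differed by 0.88 (SE 0.26, edgeR adjusted p = 0.494) for ITE in hypoxia and PARG by -0.30 (SE 0.16). For hypoxia with ITE MACROD1 differed by 0.81 (SE 0.26, edgeR adjusted p = 0.0863) and PARG by -0.11 (SE 0.15). These values include hypoxia + ITE replicate 6. All 8 partners and readers, such as XRCC1 and DTX3L, were tested and none passed, and their medians ran from -0.05 to 0.18. Again 0 to 2 had an unadjusted p below 0.05, with the 2 for ITE in hypoxia, beside 9.56% of all genes. DTX3L, the partner of PARP9, differed by -0.36 (SE 0.13, edgeR adjusted p = 0.256) in hypoxia with DMSO and by 0.08 (SE 0.13) in hypoxia with ITE. With ITE it differed by -0.14 (SE 0.13) in normoxia and by 0.30 (SE 0.13) in hypoxia. Of the genes of NAD synthesis and the sirtuins, which use NAD as PARPs do, 12 of 15 were tested and none passed. Their medians ran from 0.03 to 0.13, and 0 to 4 had an unadjusted p below 0.05. The 4 were in hypoxia with ITE, beside 20.1% of all genes.

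Among 7 AHR targets 4 were tested. CYP1B1 rose with ITE in normoxia by 2.51 (SE 0.20, edgeR adjusted p = 7.64e-09) and in hypoxia by 2.35 (SE 0.21, edgeR adjusted p = 6.18e-08), from 56.7 ± 7.75 to 322 ± 53 CPM and from 47.2 ± 13.4 to 236 ± 73.4 CPM (SD, n = 6). NQO1, a quinone reductase, differed by 0.17 (SE 0.14) and 0.31 (SE 0.14), and AHRR, a repressor of AHR, by 0.10 (SE 0.44) and -0.42 (SE 0.51), and none of these passed (edgeR adjusted p between 0.508 and 1). CYP1A1 had at most 3 counts in any library, CYP1A2 at most 1 and ALDH3A1 none, so they were not tested. In the deepest ITE libraries 3 counts were worth 0.0595 CPM (normoxia + ITE replicate 5) and 0.0334 CPM (hypoxia + ITE replicate 4). CYP1A1 therefore lay at or below these levels there, with ITE present. PARP9, PARP10, PARP12 and PARP14 belong to the genes that interferon induces, so a list of 16 interferon-stimulated genes was set beside them. Of 14 tested, IFIT2 rose with hypoxia with DMSO by 0.81 (SE 0.20, edgeR adjusted p = 0.0414), a call that held in 10 of 24 fits that each left out 1 library. ISG15 rose with hypoxia with ITE by 1.06 (SE 0.26, edgeR adjusted p = 0.0228), a call that held in 19 of 24 such fits. It was lost without normoxia + ITE replicate 1, 3, 4 or 6 (edgeR adjusted p = 0.05 to 0.0674) and without hypoxia + ITE replicate 6 (0.75, edgeR adjusted p = 0.0728). Both calls are 1 of 14 genes in their comparison, and the medians of the list were -0.03 and -0.02, against 0 and 0.02 over all genes.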

How the data were processed

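RNA from 24 RCC4+VHL libraries (4 groups of 6, described in the study's methods as independent replicates) was sequenced from polyA-selected, directional libraries. The authors trimmed reads with Trim Galore 0.3.3, aligned them to GRCh37 with HISAT2 2.05 (version per the labels), applied Picard 2.0.1 and counted reads per gene with HTSeq 0.5.4p3 in its intersection-strict mode. The deposited values are raw counts per gene symbol, not normalised. The strand setting of the counting is not given in the sources used here, and no exon of the main transcripts overlapped another counted gene.

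Counts were scaled by TMM and tested with edgeR 4.0.16 quasi-likelihood fits (R 4.3.3) with 1 mean per group over all 24 libraries, after filterByExpr with a minimum count of 10. Tests were two-sided, with Benjamini-Hochberg adjustment over 11735 genes (threshold 0.05). SEs were taken as the log2 difference divided by the root of the F statistic. CPM used the TMM-scaled totals, and log2 CPM a prior count of 2. Intervals cover counting error only. Alternatives used DESeq2 1.42.0 and limma 3.58.1 (voom with sample weights). Transcript lengths and G + C content came from GENCODE models lifted to GRCh37 and covered 90.5% of tested genes.

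The genes and gene lists (further PARP family genes, ADP-ribose removal, PARP partners and readers, NAD synthesis and sirtuins, AHR targets, interferon-stimulated genes) were chosen with earlier results of these data known. Besides these, the 5 genes with the highest Pearson r to TIPARP were named. Groups were taken from the sample labels.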

Additional observations from a re-analysis of the deposited data

Results flagged for a closer look

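Among 40 sets of 6 libraries (10 genes in 4 groups), 2 held a library far from the others by Dixon's test at the 95% level, and chance alone gives about 1 in 20, or 2 of 40. Both were hypoxia + ITE replicate 6. PARP10 was at 194 CPM there, where the nearest library was at 52.7 CPM, a gap of 0.972 of the whole range of the group. PARP9 was at 8.21 CPM there, from 34 counts, where the nearest library was at 19.0 CPM, a gap of 0.649 of the range.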

How the results depend on the processing

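TIPARP with ITE in hypoxia kept its direction under every alternative run, with log2 differences of 0.58 to 0.78, and of 0.48 to 0.80 when each library was left out in turn, where it passed the threshold only without hypoxia + ITE replicate 6 (0.80, adjusted p = 0.00299). It also passed with limma voom and sample weights (0.70, adjusted p = 0.000445), and with 2 edgeR alternatives chosen after seeing the data. With hypoxia + DMSO replicate 2 and hypoxia + ITE replicates 1 and 6 left out it was 0.67 (adjusted p = 0.00112). With offsets for G + C content and length it was 0.74 (adjusted p = 0.0421). TIPARP did not pass with DESeq2 (adjusted p = 0.12) or the other edgeR settings (0.473 to 0.973). The exact permutation test (0.58, and 0.78 without hypoxia + ITE replicate 6) gives an unadjusted p for this gene alone. It was not counted as passing, and its form without replicate 6 was also chosen after seeing the data. TIPARP in normoxia stayed between 1.32 and 1.39. Of the 9 other genes 0 were called in every setting, except in hypoxia with ITE, where 1 (PARP10) was called by DESeq2 and without hypoxia + ITE replicate 1, 4 or 5, so that leaving out libraries gave 0 to 1 calls. Of the 5 genes most like TIPARP, 3 were among the top 5 by Spearman's rho and 4 without hypoxia + ITE replicate 6.

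The labels give the replicate numbers no meaning beyond naming, and in no comparison did the deviations of every same-numbered pair correlate above 0.1, so the numbers were not taken to pair the libraries. The counts of same-numbered pairs given for TIPARP are therefore descriptions. For ITE in normoxia 5 of 6 pairs did (0 to 0.43) and 10 of 12 libraries correlated best with their own number, a hint from the data. In the other comparisons 2 to 4 pairs did (-0.18 to 0.25), and 3 to 7 of 12 libraries. With the replicate number as a block TIPARP with ITE in hypoxia was 0.64 (adjusted p = 0.558), and 0.58 (adjusted p = 0.973) in the 2 compared groups alone. The block moved the calls over all genes from 6 to 13 for ITE in normoxia (from 30 to 255 in the compared groups alone), and called 0 of the 9 genes in each comparison. Depth limits PARP3, PARP9 and PARP12 most, with 8, 9 and 19 counts in hypoxia + DMSO replicate 2. The cause of these differences between settings was not tested.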
